A study of Mus musculus with 17 samples.

Results

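Genes that mark tissue-resident macrophages, 10 in all, were followed across RNA-seq libraries of mouse bone marrow cells sorted as hematopoietic stem and progenitor cells (HSPC). The 10 genes were Vcam1, Axl, Mertk, C1qa, C1qb, C1qc, Cd5l, Spic, Selenop and Slc40a1, found by symbol among the 35321 genes of the deposited count table. They were chosen by their levels in these same libraries, high and variable under phosphate-buffered saline (PBS) and low after lipopolysaccharide (LPS), so every difference between PBS and an LPS group is given below as a description. Counts of members called in those comparisons use the values that chose the genes and support nothing. All 10 passed the filter on low counts, which kept 14920 genes. A gene passed it through its highest groups, so a gene high only in PBS could pass.

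All libraries came from wild-type C57BL/6J mice injected intraperitoneally, whose marrow was then sorted by flow cytometry. The 5 groups were the PBS mice (n = 5, labelled as day 0) and mice given LPS alone or LPS plus a blocking antibody to the receptor of interleukin 10 (IL-10R), each harvested at 24 h or 72 h (n = 3 per group). The 2 texts of the record disagree on the amounts: both give 5 for LPS and 100 for the antibody, in micrograms in the design text and in milligrams in the sample protocol, and neither unit is assumed here. No group here had the antibody without LPS. Neither the markers of the sorting gate, the animals' age and sex, nor whether each library came from 1 animal is given in the sources used here, so p-values measure only the spread between these libraries, which may be technical.

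Resident macrophages of the marrow take up dying cells and senescent red cells, recycle their iron and hold stem and progenitor cells in place. Mertk and Axl are receptor kinases of the TAM family that recognise dying cells through bridging ligands such as Gas6. C1qa, C1qb and C1qc encode the chains of C1q, which starts the classical complement pathway and coats dying cells. Slc40a1 (ferroportin) exports iron, Spic is an ETS-family transcription factor needed by iron-recycling macrophages, and Cd5l is a protein secreted by macrophages. Vcam1 is an adhesion molecule of macrophages and vessels that binds an integrin made of Itga4 and Itgb1 on progenitors. Selenop, a secreted selenium carrier, is made by many cell types besides macrophages.

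The promoter stretches of 4 of the genes are shown, some of which hold the letters of motifs bound by macrophage factors. These 4 genes moved together across libraries, as described below, and so did members not shown, such as C1qc. Each is the 250 bases before the RefSeq start (GRCm38.p6), read 5′ to 3′ on the gene's strand. They lie at chr4:136886201-136886450 on the minus strand (C1qb), chr3:87357631-87357880 on the plus strand (Cd5l), chr10:88683024-88683273 on the minus strand (Spic) and chr2:128698665-128698914 on the plus strand (Mertk). None of the 4 overlaps an annotated exon, and that of Spic lies inside the span of a longer annotated gene model. Capitals mark AGGAAGT (ETS factors of the Spi1 and Spic type) and TGCTGA (a core of the site of MAF factors), searched on both strands, and the paired MAF site, which is TGCTGA, any 2 bases and TCAGCA and so holds the core on each strand.
C1qb: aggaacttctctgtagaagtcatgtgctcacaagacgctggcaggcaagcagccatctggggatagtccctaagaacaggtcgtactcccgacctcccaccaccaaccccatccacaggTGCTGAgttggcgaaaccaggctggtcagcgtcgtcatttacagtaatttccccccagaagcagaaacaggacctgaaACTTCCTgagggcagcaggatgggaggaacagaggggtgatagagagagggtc
Cd5l: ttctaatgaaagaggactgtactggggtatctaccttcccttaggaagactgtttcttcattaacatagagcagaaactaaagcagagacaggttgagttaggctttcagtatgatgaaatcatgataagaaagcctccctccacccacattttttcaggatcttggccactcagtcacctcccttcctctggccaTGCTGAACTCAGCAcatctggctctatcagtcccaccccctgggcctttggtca
Spic: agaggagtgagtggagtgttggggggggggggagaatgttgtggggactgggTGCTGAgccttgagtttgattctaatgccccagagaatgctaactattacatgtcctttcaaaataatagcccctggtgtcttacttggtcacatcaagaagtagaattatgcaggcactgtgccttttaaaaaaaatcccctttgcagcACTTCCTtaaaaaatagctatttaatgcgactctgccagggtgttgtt
Mertk: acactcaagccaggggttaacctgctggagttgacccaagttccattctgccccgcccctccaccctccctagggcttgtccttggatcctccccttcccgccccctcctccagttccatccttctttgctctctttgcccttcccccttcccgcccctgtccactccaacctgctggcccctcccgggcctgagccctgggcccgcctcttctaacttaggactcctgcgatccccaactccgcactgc

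AGGAAGT stood 53 to 47 bases before the start of C1qb and 48 to 42 bases before that of Spic, in both cases on the opposite strand. Of the 7 members with a promoter in the RefSeq table, 4 held AGGAAGT (also C1qc and Selenop), against 7.69% of 32851 upstream windows of the same length. Member counts are per gene and the shares per window: Selenop had several overlapping windows, and a match in any of them counted. The C1qc window overlapped annotated exons over 151 of its 250 bases. TGCTGA was present in 3 of the 7 (C1qb, Cd5l and Spic), against 16.1% of windows. The paired site stood 54 to 41 bases before the start of Cd5l, and 2 of the 32851 windows held it (0.00609%). The Mertk and Axl windows held none of these. The paired MAF site with 1 base between its parts, the kappa B site (GGG, any 2 bases, TTTCC) and the LXR site (AGGTCA, any 4 bases, AGGTCA) were in 0 of the 7, against 0.00609%, 1.41% and 0.0152% of windows. The antioxidant element (TGAC, any 3 bases, GC) was in 1 of the 7, C1qb, against 10.2% of windows. The interferon element (GAAA, any 2 bases, GAAA) was in 1, Selenop, against 2.98%. The motifs were chosen with the sequences in view, and a match describes letters and is no measured binding site. Vcam1, C1qa and Slc40a1 have no entry in that table.

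The libraries held 10516722 to 16006001 counts. Scaling factors were 0.947 to 1.12 except in LPS 24 h library 1, at 0.799. The count table names the PBS libraries and library 1 of both 24 h groups in a different style from the rest, and the labels do not say whether that marks a batch. Among pairs of libraries of the same group, none looked like 1 library deposited under separate names. Stem and progenitor markers (14 genes, such as Kit, Ly6a and Cd34) summed to 1969 to 2869 CPM (a gene's counts scaled to a common library total) in PBS, 1267 to 1448 at 24 h of LPS, 1368 to 1668 with antibody at 24 h, 2026 to 2697 at 72 h of LPS and 1381 to 1985 with antibody at 72 h. Macrophage, monocyte, erythroid and lymphoid markers were present in the same libraries. These bulk libraries do not show which cells held the RNA of the 10 genes, macrophages or the sorted progenitors themselves. Fewer such cells and less RNA of a gene per cell cannot be told apart either.

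The C1q genes sit side by side on chromosome 4 (GRCm38, GENCODE M21 annotation, minus strand): C1qb at 136880129 to 136886187, C1qc at 136889804 to 136893065 and C1qa at 136895917 to 136898803. On a per-length scale, C1qa had the highest mean level among the 10 in PBS, 90.9 ± 94.8 CPM per kilobase of exon (SD, n = 5). C1qb followed at 75.0 ± 75.7, and Selenop at 72.8 ± 39.6. Spic was lowest, at 4.82 ± 4.47, and Mertk next lowest, at 5.72 ± 5.76. Apart from Selenop these SDs are about as large as the means, and neighbours in the order do not differ beyond their spread. Within the 5 PBS libraries the per-length ratio of C1qa to C1qc stayed between 1.71 and 2.29, and that of C1qb to C1qc between 1.66 and 1.90, although the level of each gene varied far more. Over the 13 libraries of all groups with more than 10 counts of each chain, the ranges were wider, 1.41 to 2.65 and 0.93 to 3.75.

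Among PBS libraries the same library was highest, next highest and lowest for all 10 genes. Vcam1 stood at 64.6, 681, 158, 122 and 288 CPM in PBS libraries 1 to 5. Axl stood at 41.3, 397, 88.5, 83.0 and 173 CPM, and Mertk at 5.53, 66.7, 14.1, 9.14 and 28.6 CPM. Library 2 was the high one, library 5 came next and library 1 was lowest. The highest library exceeded the lowest by 7.35-fold for Spic to 12.1-fold for Mertk, and by 3.26-fold for Selenop. The SD of log2 CPM over the PBS libraries was 0.70 for Selenop and 1.14 to 1.40 for the other 9, where the median over all tested genes was 0.20. The genes were chosen in part for varying among these libraries, so nothing is read from this spread. PBS library 2 was the highest of the 5 for 21.3% of tested genes.

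**Figure D1:**
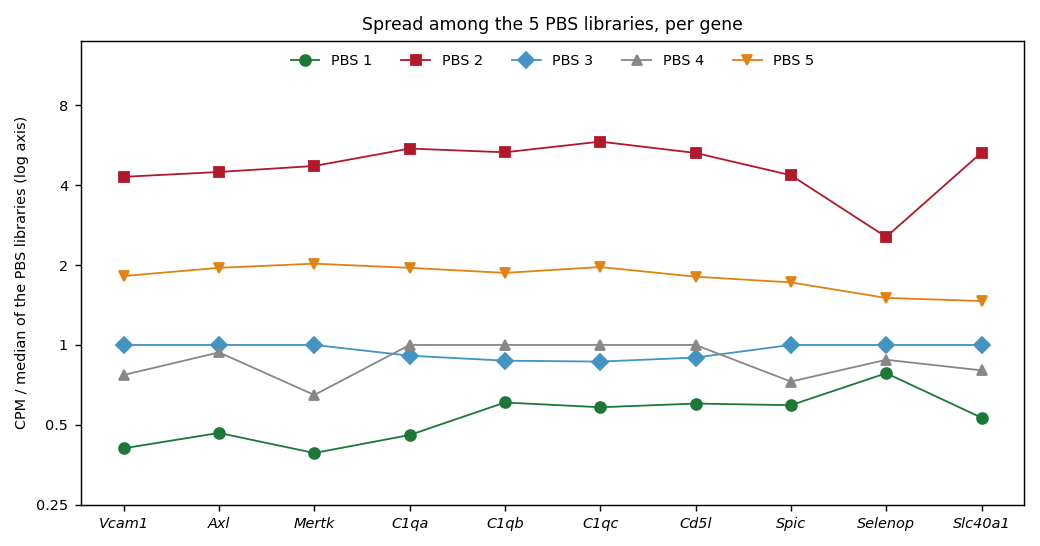
CPM of each gene in each PBS library, divided by the gene's median over the 5 PBS libraries (log axis, 1 line per library). PBS 2 is the top line and PBS 1 the bottom line for all 10 genes, and the lines lie closest together at Selenop.

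Of 20 other resident macrophage markers (such as Adgre1, Mrc1, Cd163 and Siglec1), PBS library 2 was highest in 20 and library 1 lowest in 17. The median ratio of library 2 to the median of the other PBS libraries was 4.82 in this list, 2.72 for Selenop and 4.63 to 6.26 for the other 9 members. The summed level of the 20 markers was 921, 3498, 1161, 1322 and 1712 CPM in PBS libraries 1 to 5. The median ratio for library 2 was 0.93 in stromal and endothelial markers, 0.66 in erythroid markers, 1.04 in stem and progenitor markers, 1.74 in dendritic cell markers and 2.76 in monocyte and neutrophil markers. The part of other cell types in the PBS spread was not tested.

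At 24 h after LPS each of the 10 genes was below its lowest PBS library in all 3 libraries. The fit called 10 of 10 lower, where 18.5% of tested genes were called lower. The members were chosen for this difference, so nothing is read from the count. The median log2 difference over the 10 was -4.28 (range -6.89 to -2.42), and over all tested genes -0.03. The libraries of 22.2% of tested genes lay wholly below PBS in this comparison. Without PBS library 2 the differences ran from -6.10 to -2.06.

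**Figure D2:**
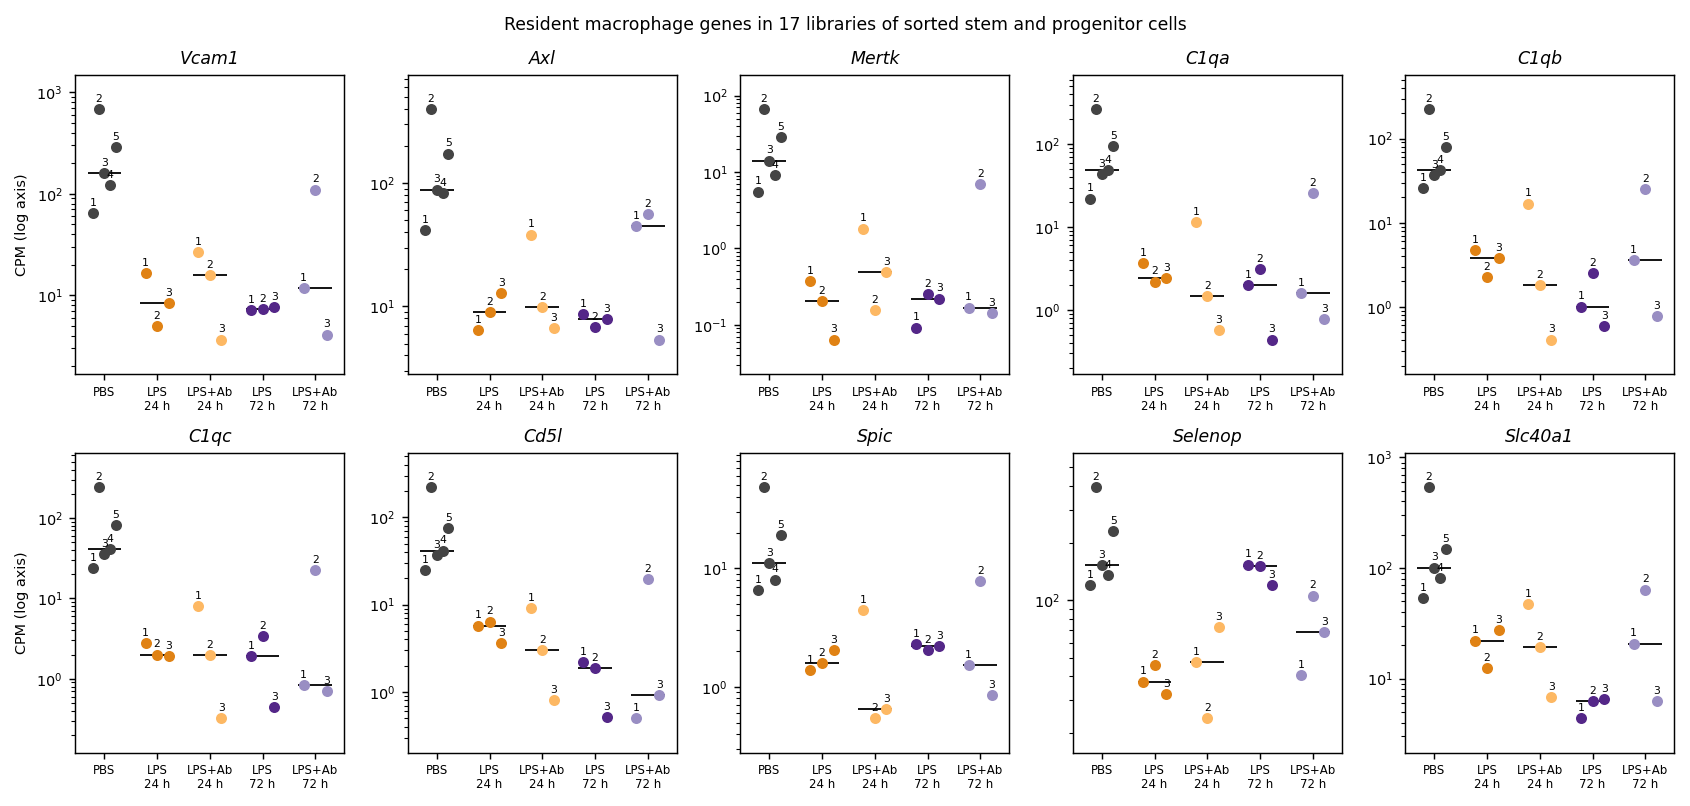
CPM of the 10 genes in each of the 17 libraries (log axis, 1 panel per gene, digits are library numbers, bars are group medians, Ab is the IL-10R blocking antibody). After LPS all points lie below the PBS points at 24 h, and at 72 h of LPS alone Selenop is back at the level of the lower PBS libraries while the other 9 genes are not.

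The adhesion molecule Vcam1 stood at 16.5, 4.94 and 8.36 CPM at 24 h of LPS, against 263 ± 248 in PBS (SD, n = 5), a fitted 26.7-fold lower level. At 72 h it stood at 7.15, 7.35 and 7.68 CPM, the closest agreement of its libraries in any group. With antibody it stood at 26.6, 15.9 and 3.66 CPM at 24 h, and at 11.7, 110 and 4.10 CPM at 72 h. The second library of the last group was above the lowest PBS library, and the other libraries of the LPS groups were all below it.

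Of the TAM receptors, Axl stood at 6.40, 8.93 and 12.8 CPM at 24 h of LPS and at 8.71, 6.76 and 7.90 CPM at 72 h, against 157 ± 143 in PBS (SD, n = 5). With antibody it stood at 38.1, 9.84 and 6.67 CPM at 24 h and at 44.5, 55.6 and 5.37 CPM at 72 h. The 72 h antibody libraries therefore fell into 2 high ones and 1 low one. Mertk was close to the limit of detection after LPS alone, with 4, 3 and 1 counts in the 24 h libraries and 1, 3 and 3 counts in the 72 h libraries. PBS libraries held at least 88 counts of it. The ratio of its scaled counts to PBS was 0.00858 at 24 h (95% interval for counting error alone 0.0037 to 0.0169) and 0.00845 at 72 h (0.00339 to 0.0175). In the antibody groups it had 26, 2 and 6 counts at 24 h and 2, 74 and 2 counts at 72 h.

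The C1q chains were all low after LPS. C1qa stood at 3.71, 2.20 and 2.42 CPM at 24 h of LPS and at 2.02, 3.13 and 0.44 CPM at 72 h, against 94.6 ± 98.6 in PBS (SD, n = 5). C1qb stood at 4.73, 2.27 and 3.83 CPM and then at 1.01, 2.54 and 0.59 CPM, against 81.6 ± 82.4. C1qc stood at 2.78, 1.99 and 1.91 CPM and then at 1.92, 3.38 and 0.44 CPM, against 84.2 ± 89.5. In the antibody group at 24 h, library 1 held 11.4, 16.9 and 7.98 CPM of C1qa, C1qb and C1qc, and no other library of that group exceeded 1.95 CPM of any of them. In the antibody group at 72 h, library 2 held 25.8, 25.3 and 22.4 CPM, and no other library exceeded 3.62 CPM.

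Cd5l stood at 5.75, 6.39 and 3.64 CPM at 24 h of LPS and at 2.20, 1.86 and 0.51 CPM at 72 h, against 79.6 ± 80.3 in PBS (SD, n = 5), so its 72 h libraries lay wholly below its 24 h libraries. Spic stood at 1.39, 1.58 and 2.04 CPM and then at 2.29, 2.03 and 2.19 CPM, against 18.5 ± 17.2. The iron exporter Slc40a1 stood at 22.1, 12.4 and 27.5 CPM and then at 4.40, 6.25 and 6.51 CPM, against 184 ± 200. Its 72 h libraries too lay wholly below those of 24 h. With antibody at 72 h, Slc40a1 stood at 20.7, 63.9 and 6.29 CPM.

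Selenop differed from the other 9 at 72 h. It stood at 37.5, 45.9 and 32.1 CPM at 24 h of LPS and at 154, 151 and 120 CPM at 72 h, against 120, 393, 154, 135 and 231 CPM in the PBS libraries. The 72 h libraries were wholly above the 24 h ones and overlapped PBS in 2 of 3 cases, with the remaining one just under the lowest PBS value. With antibody, Selenop stood at 47.3, 24.1 and 72.4 CPM at 24 h and at 40.5, 106 and 67.9 CPM at 72 h, wholly below LPS alone at 72 h.

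For LPS at 72 h against PBS the fit called 0 of the 10 members. It called 3 of all 14920 genes (0.0201%), 0% lower. The unadjusted edgeR p was under 0.05 for 9 members and for 11.4% of tested genes, and the members were chosen for this difference. The libraries of 9 members lay wholly below PBS, as did those of 7.01% of tested genes. The median log2 difference of the 10 was -5.31, against -0.03 over all tested genes, and Selenop had the smallest, -0.54. The count differed between analyses: DESeq2 called 9 members lower and an edgeR fit of these groups alone called 8, and the cause was not tested. For LPS with antibody, 10 of 10 members were called lower than PBS at 24 h (12.5% of tested genes) and 3 of 10 at 72 h (6.43%), again with nothing read from these counts. The count at 24 h was 1 without antibody library 2, and 5 without library 3. The count at 72 h was 9 without antibody library 2, 1 without PBS library 3, and 0 without PBS library 2, PBS library 5, antibody library 1 or antibody library 3. All these comparisons share the PBS libraries.

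The comparisons among LPS groups were not used to choose the genes, although the LPS libraries were, so a direction away from low LPS values is partly built in. From 24 h to 72 h of LPS, Selenop rose by 1.88 on the log2 scale (SE 0.46, 3.69-fold, edgeR quasi-likelihood test, Benjamini-Hochberg adjusted p = 0.0063, higher in 3 of 3 libraries). It was the only member called, 1 of 10, where 14.7% of tested genes were called higher and 31.1% in either direction. Leaving out any 1 library of these groups gave 1.74 to 2.03, with adjusted p from 0.0115 to 0.0305. Slc40a1 had a log2 difference of -1.85 (SE 0.93, adjusted p = 0.142) and Cd5l of -1.81 (SE 1.22, adjusted p = 0.276). These 2 were the members whose 72 h libraries lay wholly below the 24 h ones, as did 23% of tested genes, while 16.4% were called lower. Selenop's lay wholly above, as did 22.4%. The other 7 ranged from -1.39 (C1qb) to 0.37 (Spic), and their groups overlapped. In a fit of the LPS 24 h and 72 h libraries alone, Cd5l (adjusted p = 0.0283) and Slc40a1 (adjusted p = 0.00656) were also called lower. In the antibody groups, the difference between 72 h and 24 h was called for 0 members and 0% of tested genes by edgeR, with 635 genes at an unadjusted p under 0.05 and no member among them. DESeq2 also called no member there.

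**Figure D3:**
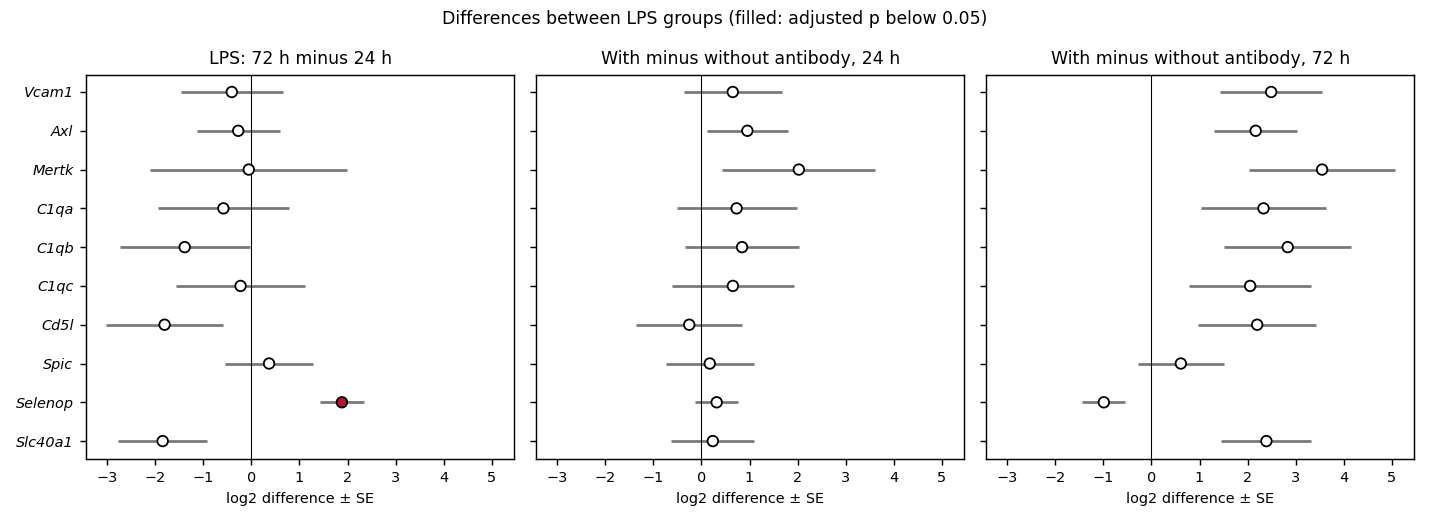
Log2 difference with its standard error for each gene in 3 comparisons among LPS groups (left, LPS 72 h minus 24 h; middle and right, with minus without the IL-10R antibody at 24 h and 72 h). Selenop in the left panel is the only filled point, an adjusted p under 0.05, and at 72 h it is the only gene to the left of 0 in the antibody comparison.

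The blocking antibody asks whether IL-10 signalling shapes these levels after LPS. At 24 h its effect on members ran from -0.25 (Cd5l) to 2.03 (Mertk) on the log2 scale. edgeR called 0 members and 0% of tested genes, with 273 genes at an unadjusted p under 0.05 and no member among them, and DESeq2 called no member. Antibody library 1 was the highest of its group for 9 of 10 members, all but Selenop. Without it the differences for Vcam1, Axl, C1qa, C1qb, C1qc, Spic and Slc40a1 were below 0. That library also had the highest erythroid marker sum, 2357 CPM, against 180 and 1150 in the other libraries of its group. Its macrophage marker sum was 821 CPM, against 563 and 642.

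At 72 h, 9 members had higher means with antibody and Selenop a lower one, and none passed the adjusted threshold (0 of 10, where 15.1% of tested genes were called, 8.64% higher and 6.48% lower). The unadjusted edgeR p was under 0.05 for 6 of 10 members and for 32.5% of tested genes. The difference was 2.17 for Axl (SE 0.87, edgeR adjusted p = 0.0982), 2.39 for Slc40a1 (SE 0.94, adjusted p = 0.0912) and 2.49 for Vcam1 (SE 1.06, adjusted p = 0.117). For Mertk it was 3.55 (SE 1.52, adjusted p = 0.118), and for Selenop -0.99 (SE 0.45, adjusted p = 0.136). Selenop was the member whose antibody libraries lay wholly on 1 side of LPS alone, below it, as did 16.1% of tested genes. DESeq2 called 2 members, Mertk (adjusted p = 0.0456) and Slc40a1 (adjusted p = 0.0466). Most of these differences rested on antibody library 2, the highest of its group for all 10 genes. It was above the lowest PBS library for Vcam1, Axl, Mertk, C1qa, Spic and Slc40a1. It did not have the highest macrophage marker sum of its group, 860 CPM against 881 in library 1 and 603 in library 3. Mpeg1 alone gave 303, 539 and 291 CPM of these sums. Without it the difference was 0.13 for Vcam1, -0.26 for Mertk, -0.60 for C1qa, 0.70 for C1qb, -1.24 for C1qc, -0.995 for Cd5l and -0.84 for Spic.

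Axl and Slc40a1 kept a positive difference without that library, 1.72 and 1.27. In antibody library 1 at 72 h, Axl was at 44.5 CPM, above the lowest PBS library, while C1qa, C1qb and C1qc were at 1.60, 3.62 and 0.84 CPM and Mertk had 2 counts. The erythroid markers summed to 1531 CPM in that library, against 352 and 234 in libraries 2 and 3, and their part in the Axl level was not tested. Without antibody library 3 the Axl difference was 2.68 (adjusted p = 0.0427). The change of the antibody effect between 24 h and 72 h was called for no member (adjusted p from 0.216 to 0.877) and for 6.35% of tested genes.

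Ordered by group mean, PBS was highest for all 10 genes and the antibody group at 72 h next for 9 of them. For Selenop the next group was LPS at 72 h. In 8 genes LPS at 72 h had the lowest mean. Most neighbours in these orders overlapped. The exceptions were PBS against the antibody group at 72 h for C1qb, C1qc and Cd5l (13.6% of tested genes lay wholly below PBS there), LPS 24 h against LPS 72 h for Slc40a1, and LPS 72 h against the antibody group at 72 h for Selenop.

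As a description over the 17 libraries, which share group differences and marrow composition, the 36 gene pairs without Selenop had Pearson r of log2 CPM between 0.84 and 0.99 (median 0.93). The 9 pairs with Selenop had r between 0.43 and 0.77. With group means removed the ranges were 0.652 to 0.985 and 0.359 to 0.748. The genes were chosen for varying among the PBS libraries and falling after LPS. Moving together is therefore partly built in, also with group means removed, and nothing is read from it.

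**Figure D4:**
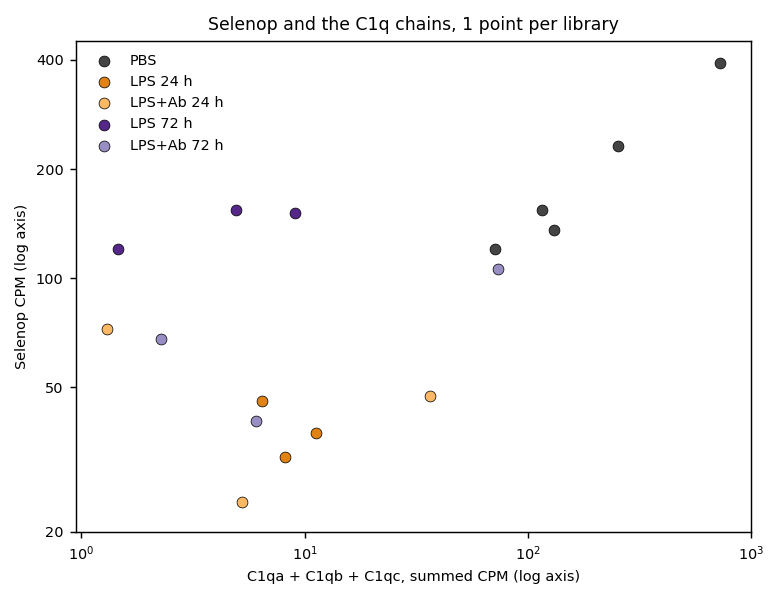
Selenop CPM against the summed CPM of C1qa, C1qb and C1qc, 1 point per library (log axes). The LPS 72 h libraries lie at 120 to 154 CPM of Selenop, near the lower PBS points, at C1q sums far to the left of PBS.

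Outside the 10, the genes closest to their mean profile were Fcnaos (r = 0.99), Fcna (0.98), Ms4a7 (0.98), Col14a1 (0.98), Cd209f (0.98) and Gm43109 (0.97), out of 13629 genes compared over the 17 libraries. With group means removed, Fcnaos (0.98), Hmox1 (0.97), Fcna (0.96), Dmpk (0.95), Ms4a7 (0.95) and Col14a1 (0.94) came first. Fcna encodes a ficolin, a lectin of the complement system, and ran from 21.5 to 295 CPM in PBS and from 0.14 to 27.5 CPM in the LPS groups. Fcnaos is named as its antisense partner, and whether the counting used strand is not given in the sources used here, so their reads may be mixed. Hmox1 encodes heme oxygenase, which opens the heme ring after red cell uptake, and ran from 59.7 to 521 CPM in PBS and from 3.15 to 60.4 CPM after LPS.

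Most of the 20 other macrophage markers were lower at 24 h of LPS. This list and those below were chosen with earlier results of these data known and use the same libraries. Their counts and p-values are therefore given as a description and are no independent support. The edgeR test called 16 of 20 lower and none higher, against 18.5% of tested genes called lower, with a median log2 difference of -3.38 against -0.03. Without PBS library 2 it called 12. The mannose receptor Mrc1 fell by 6.70 (SE 1.25, adjusted p = 0.00126), the F4/80 gene Adgre1 by 3.71 (SE 0.70, adjusted p = 0.0013) and the hemoglobin scavenger receptor Cd163 by 3.51 (SE 0.64, adjusted p = 0.00114). Vsig4, a complement receptor of resident macrophages, had 0 counts in every library of LPS alone and of antibody at 24 h. It was already low in PBS, with 13, 52, 11, 3 and 26 counts in libraries 1 to 5. At 72 h of LPS against PBS 0 of 20 were called, where 0.0201% of tested genes were, and 12 of 20 had libraries wholly below PBS, where 7.01% of tested genes did.

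From 24 h to 72 h of LPS, 5 of the 20 markers rose (Csf1r, Trf, Mpeg1, Lgmn and Cd163) and Marco fell, against 14.7% and 16.4% of tested genes. Lgmn, Cd163 and Marco are named here after their values were seen. Csf1r, the receptor for the macrophage growth factor, rose by 1.60 (SE 0.30, adjusted p = 0.00142), from 61.7 to 88.5 CPM at 24 h to 178 to 328 CPM at 72 h, against 101 to 218 CPM in PBS. Trf rose by 1.49 (SE 0.39, adjusted p = 0.0103). Mpeg1 rose by 1.43 (SE 0.40, adjusted p = 0.0136), a call lost without LPS 24 h library 1 or 3 or LPS 72 h library 3 (values from 1.10 to 1.24). Mrc1 stood at 2.84 to 4.99 CPM at 72 h, against 26.8 to 266 CPM in PBS. Siglec1 stood at 0, 2 and 2 counts, against at least 170 counts in each PBS library. Other markers lay between these levels at 72 h, among them Cd163 at 31.7 to 39.8 CPM, against 32.7 to 217 CPM in PBS. Csf1r and Mpeg1 are also expressed by monocytes and their progenitors.

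**Figure D5:**
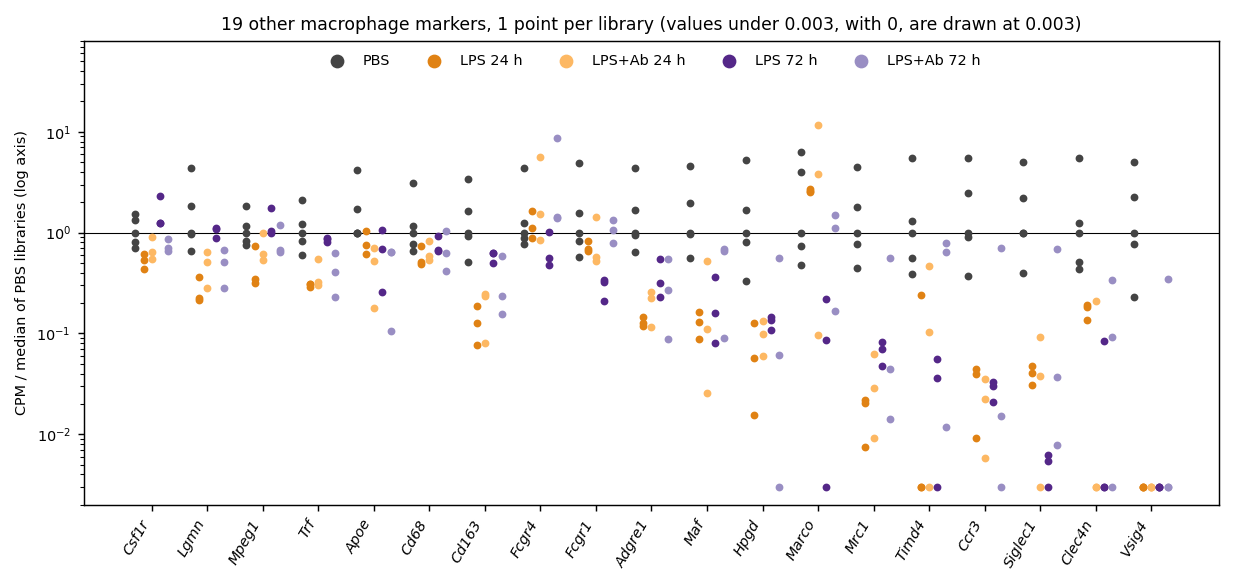
CPM of 19 of the 20 other macrophage markers in each library, divided by the gene's PBS median (log axis), ordered by their median at 72 h of LPS. From left to right the LPS 72 h points run from near the PBS line to far below it.

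At 72 h with antibody, 1 of the 20 markers was higher and 1 lower than with LPS alone, against 8.64% and 6.48% of tested genes. Siglec1, a lectin of resident macrophages, was higher by 5.78 (SE 1.79, adjusted p = 0.0406), with 12, 199 and 3 counts in the antibody libraries. Without antibody library 2 the difference was 2.38 and no longer called, as also without any 1 LPS 72 h library. Csf1r fell by 1.11 (SE 0.30, adjusted p = 0.0229), a call lost without LPS 72 h library 3 or antibody library 1 or 2 (values from -1.03 to -0.71).

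Of 21 other TAM and dying-cell uptake genes, 8 fell and 2 rose at 24 h of LPS, against 18.5% and 19.1% of tested genes. Without PBS library 2 the counts were 7 and 1. Gas6, the bridging ligand of Axl and Mertk, fell by 3.46 (SE 0.67, adjusted p = 0.00147). Abca1, a lipid exporter, fell by 2.39 (SE 0.39, adjusted p = 0.000665), and Lrp1, a receptor for C1q-bound cells, by 2.58 (SE 0.57, adjusted p = 0.00313). The most abundant genes of the list, Rac1, Elmo1 and Anxa1, were not called, with log2 differences of 0.14, -0.17 and 0.10. From 24 h to 72 h, 6 rose and 1 fell (14.7% and 16.4% of tested genes), with Abca1 up by 1.97 (SE 0.41, adjusted p = 0.00255) and Mfge8, another bridging protein, up by 1.33 (SE 0.24, adjusted p = 0.000885). At 72 h the antibody changed 1 of the 21: Mfge8 fell by 1.17 (SE 0.24, adjusted p = 0.00566). Without antibody library 2, 2 of the 21 were called lower.

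Of 21 complement genes, 7 fell and 2 rose at 24 h of LPS, against 18.5% and 19.1% of tested genes. The 2 that rose were C1qbp, by 1.41 (SE 0.21, adjusted p = 0.000487), and Calr, by 1.165 (SE 0.249, adjusted p = 0.0026). Both encode proteins that bind C1q and serve mainly other roles, C1qbp in mitochondria and Calr in the endoplasmic reticulum. From 24 h to 72 h, 5 rose and 3 fell, against 14.7% and 16.4% of tested genes. Itgam, a chain of a complement receptor of myeloid cells, rose by 1.89 (SE 0.30, adjusted p = 0.000451) and C1qbp fell by 1.565 (SE 0.24, adjusted p = 0.000424). The antibody at 72 h lowered 2 and raised 2 of the 21, against 6.48% and 8.64% of tested genes.

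Of 23 iron and heme genes, 4 fell and 4 rose at 24 h of LPS, close to the shares of all tested genes (18.5% and 19.1%). Cd163 fell as above, and Trf, the transferrin gene, fell by 1.92 (SE 0.37, adjusted p = 0.0016). Tfrc, the transferrin receptor of dividing and erythroid cells, rose by 1.49 (SE 0.40, adjusted p = 0.00942), and Steap3, an erythroid iron reductase, by 0.79 (SE 0.18, adjusted p = 0.00362). The ferritin genes Ftl1 and Fth1 had log2 differences of 0.10 and 0.32 and were not called. Erythroid markers summed to 594 to 1457 CPM at 24 h of LPS, 109 to 220 CPM at 72 h and 356 to 631 CPM in PBS, and their part in these values was not tested. From 24 h to 72 h, Tfrc fell by 2.18 (SE 0.48, adjusted p = 0.00341) and Steap3 by 1.38 (SE 0.21, adjusted p = 0.000361), among 4 that fell and 2 that rose (16.4% and 14.7% of tested genes).

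Of 17 macrophage transcription factors and nuclear receptors, 7 fell and 1 rose at 24 h of LPS, against 18.5% and 19.1% of tested genes. Pparg fell by 4.36 (SE 0.95, adjusted p = 0.00284) and Nr4a1 by 2.19 (SE 0.40, adjusted p = 0.00113). Maf, singled out after its value was seen because of the MAF letters before Cd5l, fell by 3.81 (SE 0.95, adjusted p = 0.00648). Spi1, the ETS factor of myeloid cells, was not called, at 0.36 (SE 0.17, adjusted p = 0.102). Of 14 targets of the nuclear receptor LXR, which acts in lipid-handling macrophages, 6 fell and 1 rose at 24 h, against the same shares. None rose without PBS library 2. Mylip fell by 1.07 (SE 0.19, adjusted p = 0.000888) and then rose by 1.01 from 24 h to 72 h (SE 0.20, adjusted p = 0.00204).

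Of 15 integrin and vascular adhesion genes, 5 fell at 24 h of LPS and none rose, against 18.5% and 19.1% of tested genes. Itgad, a macrophage integrin that binds Vcam1, fell by 5.43 (SE 1.04, adjusted p = 0.00142) and Itga9, another Vcam1-binding chain, by 3.21 (SE 0.55, adjusted p = 0.000824). Itga4, the Vcam1-binding chain of progenitors, was not called, at -0.24 (SE 0.22, adjusted p = 0.405), with 278 ± 25.1 CPM in PBS (SD, n = 5) and 236 ± 69.7 CPM at 24 h of LPS (SD, n = 3). Itgb7, a partner of Itga4, rose by 1.49 from 24 h to 72 h (SE 0.23, adjusted p = 0.000429) and fell by 1.63 with antibody at 72 h (SE 0.23, adjusted p = 0.00125).

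Of 23 other genes of selenium use, 10 rose, none fell and 13 were not called at 24 h of LPS, against 19.1% of tested genes called higher. Without PBS library 2, 6 rose. From 24 h to 72 h, 6 fell, none rose and 17 were not called, against 16.4% of tested genes called lower. Txnrd1, a thioredoxin reductase, rose by 0.49 at 24 h (SE 0.10, adjusted p = 0.00218), fell by 0.81 from 24 h to 72 h (SE 0.12, adjusted p = 0.000265) and was higher by 0.84 with antibody at 72 h (SE 0.12, adjusted p = 0.00122). Sephs2, which makes the selenium donor, rose by 0.81 at 24 h (SE 0.16, adjusted p = 0.00183).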

How the data were processed

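RNA-seq of polyadenylated RNA gave 1 table of raw counts per gene and library, as deposited by the authors. HISAT2 2.2.0, Subread, featureCounts 2.1.1, R 4.3.2, DESeq2 and the build GRCm38 are named in the submitters' processing notes, without roles. The annotation, strand setting and handling of multi-mapped reads are not given in the sources used here, so counts of near-identical or overlapping genes may be split.

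Libraries were grouped by their titles. The counts were fitted with edgeR 4.0.16 (R 4.3.3) over all 17 libraries with a mean per group, TMM scaling and filterByExpr (minimum count 10, minimum total 15). Quasi-likelihood tests were adjusted by Benjamini-Hochberg over 14920 genes and called at 0.05, in 9 comparisons. CPM uses TMM-scaled totals. Intervals for counts are exact and cover counting error only. On simulated counts for LPS 72 h minus LPS 24 h (14715 genes), 98.5% of 200 genes changed 4-fold were recovered, with 11 false calls. That rate covers the 200 genes together, which were drawn from genes above a cutoff on mean CPM over all libraries. The SD of log2 CPM over PBS ran from 0.70 (Selenop) to 1.40 (Mertk) among the members, against a median of 0.20 over all tested genes. Recovery at the members' spread and at their low levels in the LPS groups was not tested separately. Alternatives were other scaling factors, no filter, a replicate block, DESeq2 1.42.0, only the groups compared, and leaving out each library. Counts of list genes without single PBS or antibody libraries were added after seeing the data. The main fit used no pairing, and the replicate block used the replicate numbers in titles, which the labels do not call pairs. Deviations of same-numbered libraries had r = 0.191, 0.188 and 0.158 for LPS 24 h and PBS. Over all pairs of groups checked, r ran from -0.365 (antibody and LPS alone at 24 h) to 0.723 (antibody at 72 h and 24 h), so no pairing is read from the numbers.

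The members and lists were chosen with earlier results of these data known. Named list genes were the 3 most abundant and up to 3 called genes with the smallest adjusted p, of which a selection is given. Likeness was Pearson r of log2 CPM (prior count 2) with the members' mean standardised profile, among genes with a mean of at least 1 CPM. A floor of 3 counts marks the limit of detection. Symbols of all 10 members matched GENCODE M21, and 7 have a promoter in the RefSeq table. The values of 1 list gene are not reported here.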

Additional observations from a re-analysis of the deposited data

Results flagged for a closer look

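Among the 5 PBS libraries, library 2 stood apart for 4 of the 10 genes: C1qb at 224.6 CPM, C1qc at 239.7 CPM, Cd5l at 219.3 CPM and Slc40a1 at 536 CPM. In each of these the gap to the next library was a larger share of the whole range than Dixon's 95% limit for 5 samples. The genes were chosen in part for varying among these libraries, so this restates the choice and is no test, and the chance rate of about 1 in 20 groups does not apply to them. The other 6 were highest in the same library without passing that limit.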

How the results depend on the processing

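The limits here are 3 libraries per LPS group, no stated animal per library, and 8 LPS-group libraries with at most 3 counts of Mertk, whose difference between 24 h and 72 h of LPS alone is not measurable at this depth. The replicate block (number from the titles) changed the number of members called from 10 to 6 for antibody 24 h minus PBS and from 3 to 1 for antibody 72 h minus PBS, and no other such count. It left 10 called for LPS 24 h minus PBS. The labels do not say that libraries sharing a number are paired. DESeq2 called 9 members for LPS 72 h minus PBS (edgeR 0), 10 for antibody 72 h minus PBS and 2 for the antibody effect at 72 h. Restricting the fit to the compared groups gave 8 for LPS 72 h minus PBS, 1 for antibody 72 h minus PBS and 3 for LPS 72 h minus 24 h. The cause of these shifts was not tested. Over all genes, LPS 72 h minus PBS gave 3 calls in the main analysis, 178 with DESeq2 and 99 with only those groups.

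Leaving out 1 library gave 1 to 10 members called for antibody 24 h minus PBS, 0 to 9 for antibody 72 h minus PBS and 0 to 1 for the antibody effect at 72 h, and the counts of the other comparisons did not move. Directions of members changed in 35 values from fits without 1 library, of which 20 were without antibody 72 h library 2 and 7 without antibody 24 h library 1, while 634 kept direction and side of the threshold. The log2 differences then ran as follows. For LPS 72 h minus 24 h the ranges were -0.74 to 0.17 (Vcam1), -0.55 to 0.52 (Mertk) and -0.95 to 0.25 (C1qc). For antibody 72 h minus antibody 24 h the ranges were -0.98 to 2.09 (Vcam1), -2.38 to 2.83 (Mertk), -1.96 to 3.15 (C1qa), -1.58 to 3.125 (C1qb), -2.17 to 2.76 (C1qc), -2.59 to 1.82 (Cd5l), -0.70 to 2.45 (Spic) and -0.86 to 1.215 (Slc40a1). For the antibody effect at 24 h the ranges were -0.00396 to 1.23 (Vcam1), -0.19 to 1.36 (Axl), -1.40 to 1.25 (C1qa), -1.68 to 1.40 (C1qb), -0.94 to 1.19 (C1qc), -1.43 to 0.24 (Cd5l), -1.48 to 0.60 (Spic), -0.0979 to 0.64 (Selenop) and -0.67 to 0.69 (Slc40a1). For the antibody effect at 72 h the ranges were -0.26 to 4.15 (Mertk), -0.60 to 2.96 (C1qa), -1.24 to 2.78 (C1qc), -0.995 to 2.80 (Cd5l) and -0.84 to 1.08 (Spic). For the change of the antibody effect with time the ranges were -0.55 to 2.495 (Vcam1), -2.30 to 2.89 (Mertk), -1.355 to 3.73 (C1qa), -0.17 to 4.515 (C1qb), -1.92 to 2.99 (C1qc), -0.76 to 3.63 (Cd5l) and -1.03 to 2.09 (Spic). Under the other settings 4 directions changed: Mertk was 0.0553 for LPS 72 h minus 24 h with upper-quartile factors, and with the replicate block Cd5l was -0.0452 and Slc40a1 -0.00385 for antibody 72 h minus antibody 24 h and Slc40a1 -0.0148 for the antibody effect at 24 h. The cause was not tested. Under these settings 527 member values kept direction and side of the threshold.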
